A study of Bos taurus with 6 samples.

Results

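The unfolded protein response and the CREB3L transcription factors were examined in intramuscular fat (IMF), the fat between muscle fibres that gives beef its marbling. The set was chosen as 10 gene symbols, of which 9 were analysed here out of 25444 genes in the mRNA table: CREB3L1, CREB3L2, ATF6, ERN1, EIF2AK3, ATF4, DDIT3, TRIB3 and HSPA5. The tenth, XBP1, was not found by its symbol in the mRNA table and was not analysed here. IMF was dissected from the sternomandibularis muscle of Chinese Qinchuan cattle slaughtered at 24 months of age, which had all been weaned at 3 months and fed alike. Steers (CM) were castrated surgically at 6 months, bulls (IM) were left intact, and the animals shared a sire. RNA was pooled within each group into 1 library per group, and the labels disagree on the animals per pool, with 6 in the design text and 3 in the sample descriptions. The pools leave no spread between animals, so every interval given here covers counting error only, and the comparison is of 2 libraries and not of the conditions.

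The endoplasmic reticulum (ER) folds secreted and membrane proteins, and an excess of unfolded protein there is read by sensors in its membrane. ERN1 (IRE1) splices the XBP1 mRNA, EIF2AK3 (PERK) phosphorylates the initiation factor eIF2 so that translation slows while ATF4 is made, and ATF6 travels to the Golgi, where proteases release its transcription factor domain. CREB3L1 (OASIS) and CREB3L2 (BBF2H7) are membrane-bound relatives of ATF6, cut by the same proteases, and are known in matrix-secreting cells for driving collagen and secretory pathway genes. HSPA5 (BiP) is the main Hsp70 chaperone of the ER and holds the sensors inactive until unfolded protein draws it away. DDIT3 (CHOP) and TRIB3 act downstream of ATF4 under prolonged stress.

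CREB3L1 is also the gene of this set that the study amplified by qRT-PCR. Its primers, as the study's supplement lists them, are shown because they define the assay for the gene with the largest difference here:

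CREB3L1 sense primer: gctgagggctatcccattc
CREB3L1 antisense primer: tggcattctccagcgttt

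The sense primer has 19 bases, 11 of them G or C, and the antisense primer has 18 bases, 9 of them G or C. The qRT-PCR measurements were not analysed here.

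The libraries held 12677375 counted reads in steers and 9868415 in bulls, and scaling by the median of ratios used factors of 1.04 and 0.959. Ratios were read for the 13501 genes with at least 20 reads over both libraries, a filter that all 9 genes of the set passed. A gene was taken as different when its scaled reads differed more than 2-fold, a log2 ratio beyond 1 or -1. By this rule 5.34% of the tested genes were higher in steers and 10.2% were lower. Whatever the size of the difference, 51.3% of the tested genes had a log2 ratio above 0 under this scaling. Among genes with at least 200 reads, as 8 of the 9 genes had, the shares were 2.88% and 5.30%.

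Transcripts of both CREB3L factors and of the chaperone HSPA5 were more abundant in steers than in bulls, those of the sensor ERN1 were less abundant, and those of ATF4, DDIT3 and ATF6 had log2 ratios between -0.27 and -0.10. Past 2-fold there were 2 of the 9 genes, CREB3L1 higher and ERN1 lower in steers. Over all tested genes the shares were 5.34% higher and 10.2% lower. The median log2 ratio of the 9 genes was -0.10, against 0.02 over all tested genes. Under the median of ratios the counting interval lay above 0 for 4 genes and below 0 for 2, and it held 0 for 3. Those 3 were ATF6, DDIT3 and TRIB3. Total counts, another scaling, lowered their log2 ratios to -0.51, -0.44 and -0.79, and the intervals were not recomputed for it. In a pooled tissue, fewer cells of a type and less RNA per cell cannot be told apart.

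**Figure D1:**
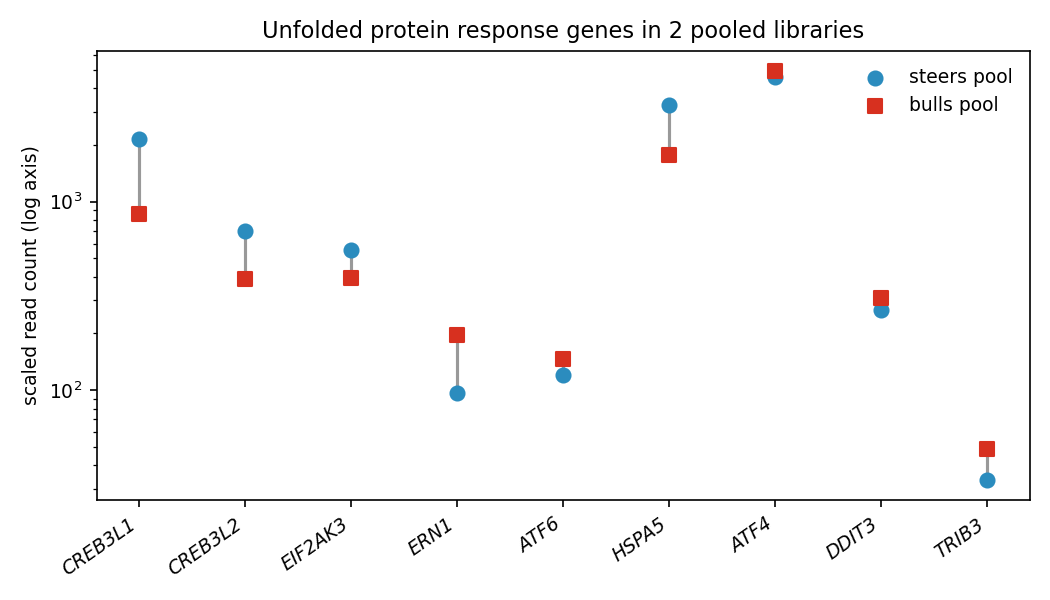
Scaled read counts (log axis) of the 9 genes in the steers pool (circles) and the bulls pool (squares), 1 library each; grey lines join the libraries of a gene. CREB3L1 stands at 2147 in steers and 863 in bulls, while the markers of ATF4 nearly touch at 4583 and 4920.

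CREB3L1 had 2240 reads in steers and 827 in bulls, or 2147 and 863 after scaling. It was 2.49-fold higher in steers (log2 ratio 1.32, 95% counting interval 1.20 to 1.43), and 3.24% of the tested genes had a higher ratio. Under this scaling the whole interval lay beyond 2-fold, whereas total counts gave a log2 ratio of 1.08, closer to that limit. CREB3L2 had 729 and 372 reads, or 699 and 388 after scaling, a ratio of 1.80 (log2 ratio 0.85, interval 0.67 to 1.03). The paralogues thus shared a direction, and CREB3L2 stayed inside the 2-fold limit.

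Because the ratio of 2 genes within a library does not depend on the scaling between libraries, the genes were also compared with each other. Reads of CREB3L1 per read of CREB3L2 numbered 3.07 in steers and 2.22 in bulls, so that CREB3L1 differed more than its paralogue by a factor of 1.38 (exact 95% interval 1.19 to 1.61). Against ATF6, the related factor of the classical response, the factor was 3.01 for CREB3L1 (interval 2.32 to 3.91) and 2.18 for CREB3L2 (1.64 to 2.88). Both CREB3L genes therefore differed from ATF6 beyond counting error, whatever the scaling.

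The other members of the CREB3 family did not share this shift. CREB3, the founding member, had 874 and 726 reads (log2 ratio 0.15, interval 0.00 to 0.29), and CREB3L4 had 42 and 54 (-0.48, interval -1.10 to 0.12). CREB3L3, a factor of liver and intestine, had 0 reads in steers and 7 in bulls, below the limit for testing. Of the Golgi proteases that release these factors, MBTPS1 had 3184 and 2553 reads (log2 ratio 0.20, interval 0.12 to 0.27). MBTPS2 had 64 and 62 reads (-0.08, interval -0.60 to 0.45). All 4 tested genes of this list lay within 2-fold, and the ratio of CREB3L1 exceeded that of each of the 4 beyond the counting interval, as did that of CREB3L2. Of all tested genes, 96.8% had a lower ratio than CREB3L1 and 92.6% a lower one than CREB3L2.

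The sensors of the classical response went different ways. EIF2AK3 had 575 reads in steers and 379 in bulls, a log2 ratio of 0.48 (interval 0.29 to 0.67). ERN1 had 101 and 188 reads and was 2.03-fold higher in bulls (log2 ratio -1.02, interval -1.38 to -0.66). ERN1 thus sat at the 2-fold limit, with an interval on both sides of it, and 9.90% of the tested genes had a lower ratio. ATF6 had 126 and 140 reads (log2 ratio -0.27, interval -0.63 to 0.08), and its interval held 0 under the median of ratios. Under total counts its log2 ratio was -0.51.

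**Figure D2:**
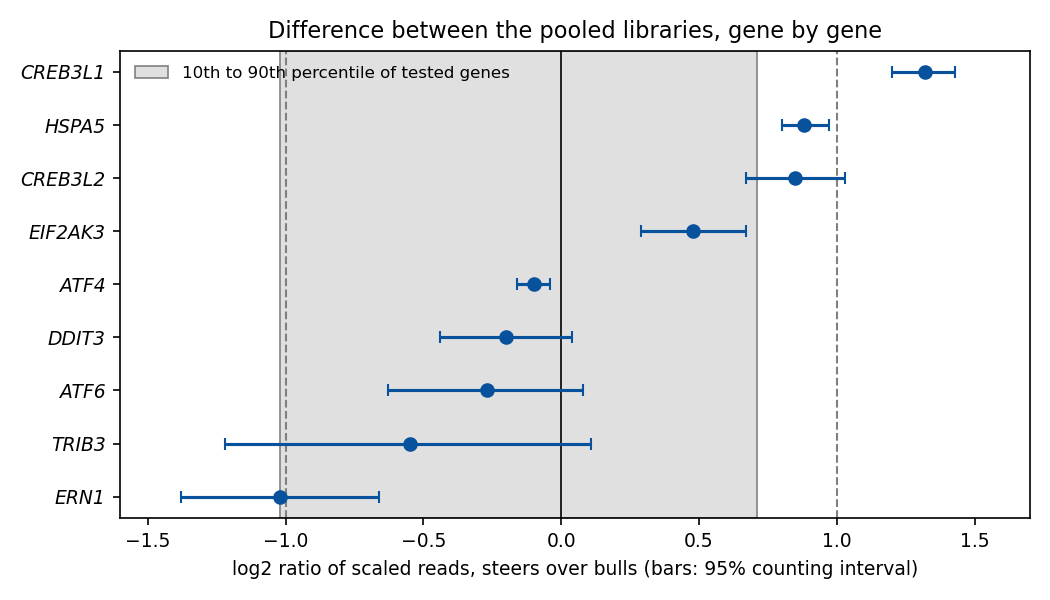
Log2 ratio of scaled reads, steers over bulls, for each of the 9 genes (points) with its 95% counting interval (bars); the grey band spans the 10th to the 90th percentile of the tested genes, -1.02 to 0.71, and dashed lines mark 2-fold. CREB3L1, HSPA5 and CREB3L2 lie to the right of the band, and ERN1 lies at its left edge.

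Set against each other, the sensors differed beyond counting error. The ratio of EIF2AK3 to ERN1 reads was 5.69 in steers and 2.02 in bulls, a factor of 2.82 (exact interval 2.13 to 3.76). For EIF2AK3 to ATF6 the factor was 1.68 (1.27 to 2.24) and for ATF6 to ERN1 it was 1.67 (1.17 to 2.39). The order EIF2AK3, ATF6, ERN1 from the highest to the lowest ratio is therefore free of the scaling between these libraries.

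HSPA5 had 3407 reads in steers and 1699 in bulls, or 3266 and 1772 after scaling. It was 1.84-fold higher in steers (log2 ratio 0.88, interval 0.80 to 0.97), so its whole interval stayed inside 2-fold, and 6.73% of the tested genes had a higher ratio. Its ratio was not told apart from that of CREB3L2, with a factor of 1.02 between them (exact interval 0.889 to 1.18).

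In the PERK branch the transcripts below the sensor had lower ratios than EIF2AK3 itself, with exact intervals of the factor of 1.30 to 1.72 against ATF4, 1.29 to 1.98 against DDIT3 and 1.26 to 3.32 against TRIB3. ATF4, the factor whose translation eIF2 phosphorylation favours, had 4781 and 4716 reads (log2 ratio -0.10, interval -0.16 to -0.04). DDIT3 had 279 and 294 reads (-0.20, interval -0.44 to 0.04). TRIB3, a pseudokinase gene, had the fewest reads of the set, 35 and 47, with a log2 ratio of -0.55 and an interval of -1.22 to 0.11. ATF4 is controlled largely by translation, which reads of mRNA do not measure. For ATF4 against DDIT3 the factor was 1.07 (exact interval 0.899 to 1.27) and for ATF4 against TRIB3 it was 1.36 (0.859 to 2.18), so these 3 genes were not told apart at this depth.

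Over all 36 pairs of the 9 genes, the exact interval excluded equal ratios for 28 pairs and held them for 8. The interval lay wholly above a 2-fold difference of ratios for 8 pairs. No such share was computed for pairs of other tested genes, so these counts are not particular to the set. The intervals narrow as reads increase, and the 36 pairs reuse the same 9 genes in 2 libraries. CREB3L1 differed from each of the other 8 genes, by factors of 1.35 against HSPA5 (1.22 to 1.49) up to 5.04 against ERN1 (3.88 to 6.57). The pairs not told apart were HSPA5 with CREB3L2, the 6 pairs among ATF4, DDIT3, ATF6 and TRIB3, and TRIB3 with ERN1.

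**Figure D3:**
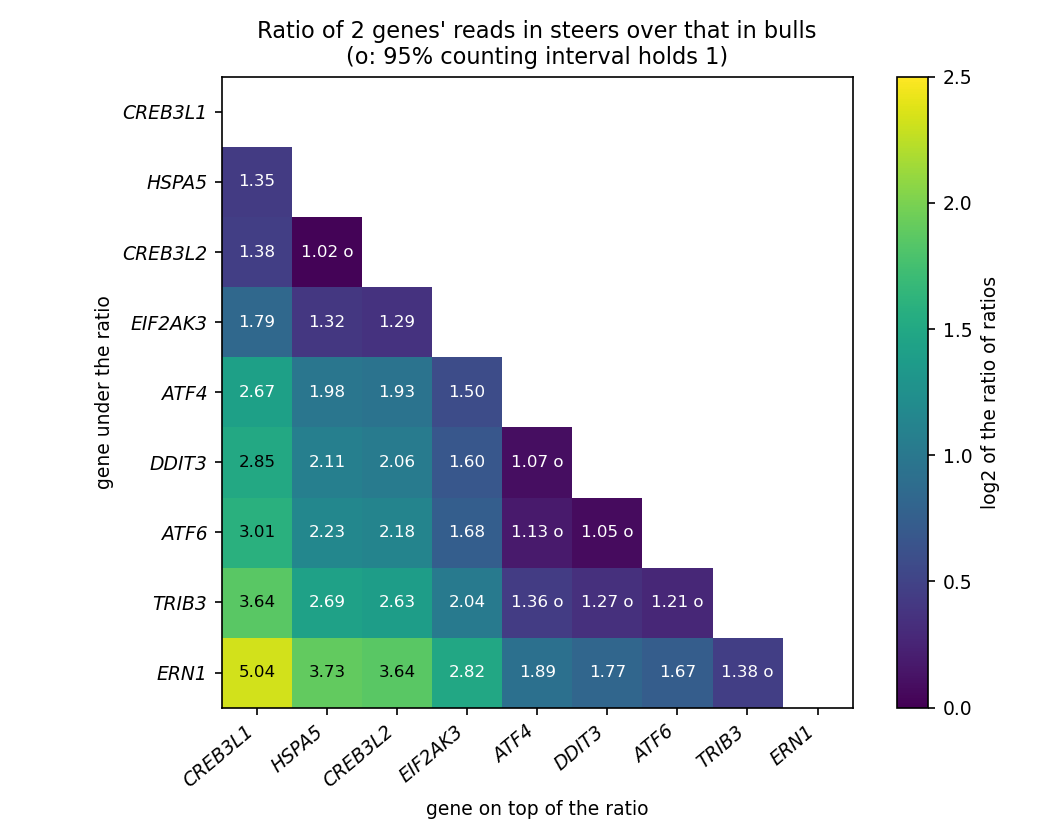
Each cell gives the reads of the column's gene per read of the row's gene in steers, divided by the same in bulls, which is free of the scaling between libraries; colour shows its log2 and the mark o an exact 95% interval that holds 1. The first column, CREB3L1, runs from 1.35 to 5.04, and the marked cells gather among ATF4, DDIT3, ATF6 and TRIB3.

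Around HSPA5, a list of 22 tested ER chaperones and folding enzymes had a median log2 ratio of 0.39, with 19 genes above 0 and 3 below. Over all tested genes 51.3% lay above 0. Past 2-fold there were 2 genes higher and 1 lower in steers, against 5.34% and 10.2% of all tested genes. HYOU1, an Hsp110-type partner of HSPA5, had 1070 and 471 reads (log2 ratio 1.06, interval 0.90 to 1.22). SDF2L1, a cofactor of ER chaperones, had 53 and 22 reads (1.15, interval 0.40 to 1.93). SIL1, a nucleotide exchange factor of HSPA5, went the other way with 50 and 95 reads (-1.05, interval -1.57 to -0.54). Under scaling by total counts 0 genes of this list were past 2-fold higher.

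Of the chaperone genes with the most reads, CALR (calreticulin) had 8092 and 3924 reads (log2 ratio 0.92, interval 0.87 to 0.98). P4HB, a disulfide isomerase and a subunit of collagen prolyl hydroxylase, had 8647 and 5130 reads (0.63, interval 0.58 to 0.68). HSPA5 had a higher ratio than 16 of the 22 genes beyond counting error, a lower one than HYOU1, and was not told apart from 5, among them CALR. Of all tested genes, 93.3% had a lower ratio than HSPA5. DNAJB9, by contrast, an ER J-protein known as a target of spliced XBP1, had 149 and 132 reads (0.05, interval -0.30 to 0.40); it was singled out after its value was seen.

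ER-associated degradation, the route by which misfolded proteins leave the ER for the proteasome, was represented by 18 tested genes. None of the 18 passed 2-fold, 15 lay above 0, against 51.3% of all tested genes, and the median log2 ratio was 0.31. OS9, a lectin of this pathway, had 5430 and 4548 reads (log2 ratio 0.13, interval 0.08 to 0.19), and the ATPase gene VCP had 3778 and 2661 (0.38, interval 0.31 to 0.46). HERPUD1, a stress-induced ER membrane gene of this pathway, had 1336 and 1460 reads (-0.25, interval -0.36 to -0.14), the lowest ratio of the list, for which it was singled out. The ratio of HSPA5 exceeded that of 17 of the 18 genes beyond counting error, but 93.3% of all tested genes had a lower ratio than HSPA5.

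Of 30 tested genes of the translocon, COPII coat and early secretory pathway, 23 lay above 0 and 0 passed 2-fold, with a median of 0.26. The share above 0 over all tested genes was 51.3%. The genes with the most reads, SSR2 and SSR4 of the translocon-associated complex, had log2 ratios of -0.07 (interval -0.12 to -0.02) and -0.14 (interval -0.20 to -0.09). The highest ratio of the list was that of KDELR3, a receptor that returns chaperones to the ER, with 1813 and 969 reads and a log2 ratio of 0.78 (interval 0.67 to 0.90). SEC61A1, the channel of the translocon, stood at 0.77 with 3330 and 1800 reads (interval 0.68 to 0.85), and both genes were chosen after their values were seen. The ratio of CREB3L1 exceeded that of each of the 30 genes beyond counting error, but 96.8% of all tested genes had a lower ratio than CREB3L1.

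Under the median of ratios, 10.2% of all tested genes were past 2-fold lower. The genes around PERK and eIF2 had a median log2 ratio of -0.16 over 13 tested genes. Past 2-fold lower was 1 of them, or 2 under scaling by total counts. The 1 gene was EIF2AK2 (PKR), a kinase of eIF2 that double-stranded RNA activates, with 17 and 36 reads (log2 ratio -1.20, interval -2.13 to -0.34). The genes of the list with the most reads were PPP1R15B (CReP), the constitutive subunit of the eIF2 phosphatase, with 632 and 690 reads (-0.25, interval -0.41 to -0.09), and NFE2L2 (NRF2), a factor of the antioxidant response that PERK phosphorylates, with 537 and 693 (-0.49, interval -0.66 to -0.33). The kinases EIF2AK1 and EIF2AK4, named for their kinship with EIF2AK3, stood at 0.12 (interval -0.07 to 0.31) and -0.65 (interval -0.89 to -0.42), so that EIF2AK3 had the highest ratio of the eIF2 kinases. Its ratio exceeded that of EIF2AK1 by a factor of 1.28 (95% interval 1.07 to 1.54) and that of EIF2AK4 by 2.19 (1.78 to 2.70). PPP1R15A (GADD34), the phosphatase subunit that ATF4 and CHOP induce to restore translation, had 373 and 675 reads (-0.98, interval -1.16 to -0.79); it was named after its value was seen.

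Known targets of ATF4 and CHOP lay on both sides of 0. Of 24 tested genes, 14 lay above 0 and 10 below, near the 51.3% above 0 over all tested genes, with a median of 0.11. Past 2-fold were ATF5 and CHAC1, higher in steers, and ATF3, lower, against 5.34% and 10.2% of all tested genes. ATF5, a stress-induced factor of the same family, had 1822 and 757 reads (log2 ratio 1.14, interval 1.02 to 1.27). CHAC1, a glutathione-degrading enzyme, had only 22 and 2 reads (3.34, interval 1.31 to 6.47). ATF3, a stress and immediate early gene, had 62 and 364 reads (-2.68, interval -3.09 to -2.28). DDIT4, which restrains mTORC1, had 5318 and 2649 reads (0.88, interval 0.82 to 0.95), whereas WARS1, a tRNA synthetase that interferon also induces, had 1435 and 2555 (-0.95, interval -1.05 to -0.86). The ratio of ATF4 was above that of 7 of the 24 targets, below that of 12 and not told apart from that of 5. Of all tested genes, 41.1% had a lower ratio than ATF4 and 58.9% a higher one. Under scaling by total counts 1 gene was past 2-fold higher and 4 were lower.

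Below IRE1, 12 tested genes of its kinase branch, of XBP1 mRNA ligation and of cell death had a median of -0.18. BAX, which permeabilises mitochondria in apoptosis, was the only gene of this list past 2-fold, with 53 and 18 reads (log2 ratio 1.44, interval 0.64 to 2.30). Of all tested genes, 5.34% were past 2-fold higher and 10.2% lower. TXNIP, whose mRNA level the PERK and IRE1 arms regulate, had 39099 and 46860 reads (-0.38, interval -0.40 to -0.36). TMBIM6, an ER membrane inhibitor of cell death, had 8166 and 6253 (0.26, interval 0.22 to 0.31). RTCB, the ligase that joins the XBP1 exons, had 813 and 590 (0.34, interval 0.19 to 0.50) and was singled out for its place beside ERN1. Under scaling by total counts 1 gene of this list was also past 2-fold lower. ERN1 had a lower ratio than 10 of the 12 genes beyond counting error, but 90.1% of all tested genes had a higher ratio than ERN1.

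**Figure D4:**
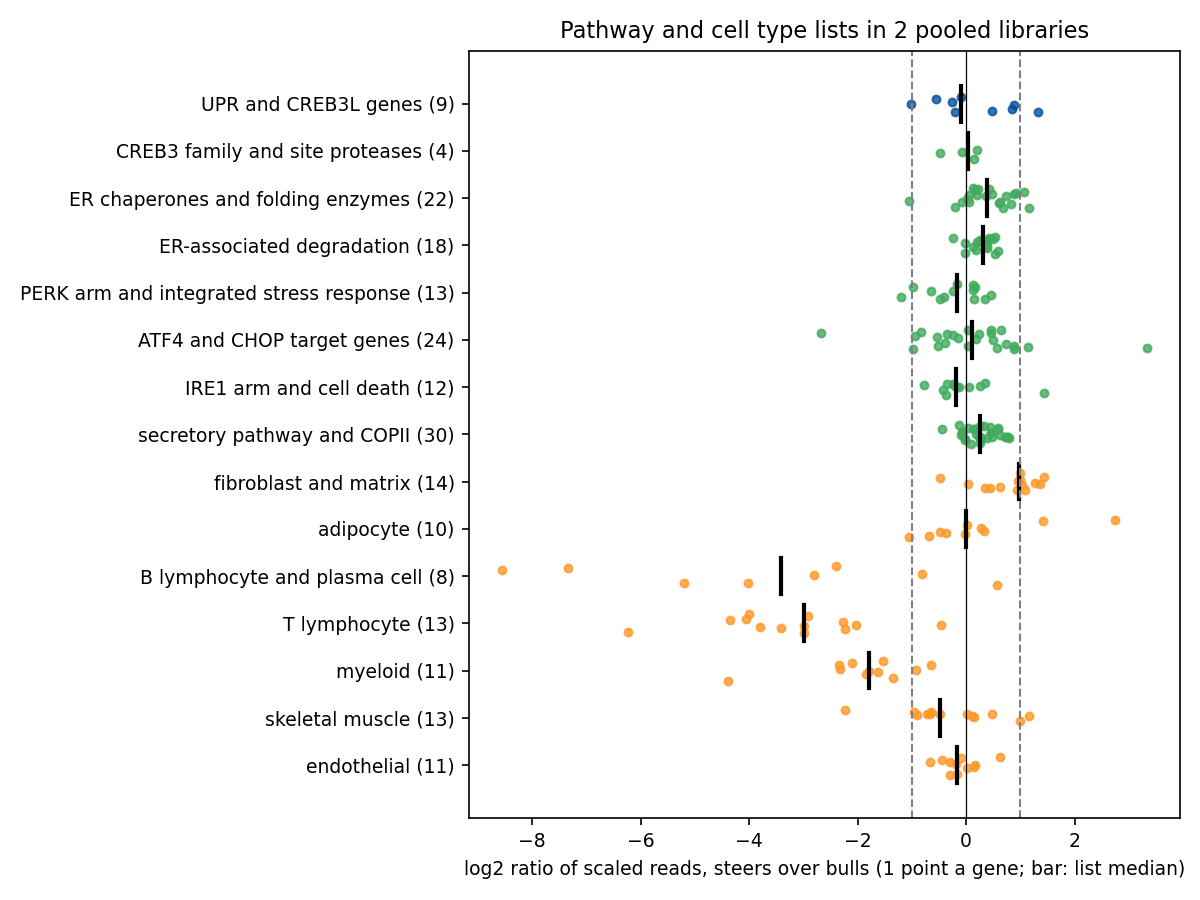
Log2 ratio of scaled reads, steers over bulls, of each tested gene (points) in the 9 unfolded protein response (UPR) and CREB3L genes, 7 pathway lists and 7 cell type lists; black bars mark list medians, dashed lines 2-fold, and the number of tested genes follows each name. Medians of the pathway lists lie between -0.18 and 0.39, whereas those of matrix genes and myeloid genes lie at 0.97 and -1.79; MZB1 and CD3G had 0 reads in steers and are drawn with 0.5 reads added.

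Markers of other cells differed between the pools as well, and their part in the values above was not tested. The 14 fibroblast and matrix genes summed to 140758 CPM (counts scaled to the usual fixed library total, without size factors) in steers and 85711 CPM in bulls. Without COL3A1, the most-read gene of that list, the sums were 108755 and 70031. Of the 14, 13 lay above 0, against 51.3% of all tested genes, and none was at 0 reads. Past 2-fold higher were 6, or 3 under scaling by total counts. The share over all tested genes was 5.34% under the median of ratios. The largest ratios of the list were 1.44 for COL6A1, 1.36 for COL5A1, 1.27 for COL3A1 and 1.08 for SPARC. The 1 gene below 0 was PDGFRA, with 1999 and 2565 reads (log2 ratio -0.48, interval -0.57 to -0.40). DCN stood at 0.04 (interval 0.02 to 0.05), and both were named after their values were seen. COL1A1 and COL1A2, collagen genes known as CREB3L1 targets and named for that, had log2 ratios of 1.00 (interval 1.00 to 1.01) and 0.93 (interval 0.92 to 0.94). CREB3L1 had a higher ratio than 11 of the 14 genes, a lower one than COL6A1, and was not told apart from COL3A1 and COL5A1. Against COL1A1 its factor was 1.24 (95% interval 1.15 to 1.34). CREB3L2 was above 5 of the 14 and below 4 beyond counting error, and HSPA5 above 5 and below 6. Of all tested genes, 96.8% lay below CREB3L1, 92.6% below CREB3L2 and 93.3% below HSPA5.

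Most genes of blood-derived cells were lower in steers, the direction of ERN1. The 11 tested myeloid genes summed to 2623 CPM in steers and 8601 in bulls. Past 2-fold lower were 9 of them, against 10.2% of all tested genes. Without CD74, the most-read gene of that list, the sums were 1624 and 4393. The myeloid genes with the largest differences were LYZ (lysozyme) with 22 and 421 reads, CD14 with 534 and 2490, AIF1 with 115 and 528, and C1QC of the complement with 534 and 2124. For 13 tested T lymphocyte genes, 12 were past 2-fold lower, against 10.2% of all tested genes. The list summed to 24.0 CPM in steers and 196 in bulls, or 15.5 and 117 without its most-read gene, PTPRC. The largest differences there were in CD3G, with 0 and 34 reads, CD8A with 5 and 94, ZAP70 with 6 and 92, and CD2 with 6 and 89.

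B lymphocytes and plasma cells, which as antibody-secreting cells depend on IRE1 and XBP1, were represented by 15 genes that summed to 39.8 CPM in steers and 509 in bulls, 8 of them tested. A single gene carried most of that sum, since the immunoglobulin light chain-like gene IGLL1 had 12 reads in steers and 4174 of the 5027 in bulls. Without IGLL1 the sums were 38.8 and 86.4 CPM. Past 2-fold lower were 6 of the 8 tested genes, against 10.2% of all tested genes. Among the 6 were MZB1 with 0 and 74 reads, CD72 with 2 and 67, and IRF4 with 10 and 149. SDC1, which plasma cells share with epithelia and other cells, went the other way with 384 of the list's 504 reads in steers and 240 in bulls (log2 ratio 0.56, interval 0.32 to 0.79). The B cell markers CD79B and MS4A1 were at 0 reads in both pools.

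Among genes with reads in both pools, the ratio of ERN1 was higher beyond counting error than that of 8 of 11 myeloid genes, 10 of 12 T lymphocyte genes and 5 of 7 B lymphocyte and plasma cell genes. Over all tested genes, 9.90% had a lower ratio than ERN1. The ratio of ERN1 was lower than that of CD163, by a factor of 0.771 (95% interval 0.604 to 0.984), and of SDC1, by a factor of 0.336 (0.251 to 0.449). The genes not told apart from ERN1 were CSF1R and C1QA of the myeloid list, CD6 and CD247 of the T lymphocyte list and PRDM1, the plasma cell factor Blimp-1.

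Adipocyte markers, which define the labelled tissue, were abundant in both pools. The 10 tested adipocyte genes had a median log2 ratio of 0.00, or -0.24 under total counts, with 5 above 0 and 5 below. They summed to 2973 CPM in steers and 3969 in bulls, or 2189 and 3209 without CIDEC. Past 2-fold were 2 higher and 1 lower, against 5.34% and 10.2% of all tested genes. FABP4, the fatty acid binding protein of adipocytes, had 3951 and 7574 reads (log2 ratio -1.06, interval -1.12 to -1.01). Higher in steers were CIDEA, a lipid droplet gene, with 998 and 136 reads (2.75, interval 2.49 to 3.02), and GPD1, which makes glycerol 3-phosphate, with 3529 and 1213 (1.42, interval 1.32 to 1.51). CIDEC, the most-read gene of the list, had 9931 and 7501 reads (0.28, interval 0.24 to 0.33). ADIPOQ (adiponectin), given as a defining marker, had 4513 and 6651.

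Skeletal muscle genes were present as well, at 2729 and 4653 CPM with a median of -0.49. MYH7, the slow myosin heavy chain, was past 2-fold lower in steers with 675 and 2906 reads, and MYH1, a fast one, past 2-fold higher with 247 and 102. ACTA1 and MYH2 had the most reads of that list, with log2 ratios of -0.65 and 0.01. The 11 endothelial genes had a median of -0.16, and the most-read of them, PECAM1 and VWF, stood at 0.16 and -0.19.

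A scaling shifts all log2 ratios by the same amount, so the order of the genes does not depend on it. Under each of 4 scalings 4 genes lay above 0 and 5 below. Scaling by total counts lowered the ratios and moved the median of the tested genes from 0.02 to -0.22. With that scaling the log2 ratio was 1.08 for CREB3L1, 0.64 for HSPA5, 0.61 for CREB3L2 and -1.26 for ERN1. The medians of the lists moved with it, to 0.15 for chaperones, 0.07 for ER-associated degradation and 0.02 for the secretory pathway, while that of the ATF4 and CHOP targets changed sign to -0.13. The share of the calls over all genes that were higher in steers was then 20.8%, compared with 34.5% under the median of ratios. Counting intervals of single genes and numbers of list genes above 0 are those of the median of ratios. They were not recomputed for the other scalings.

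**Figure D5:**
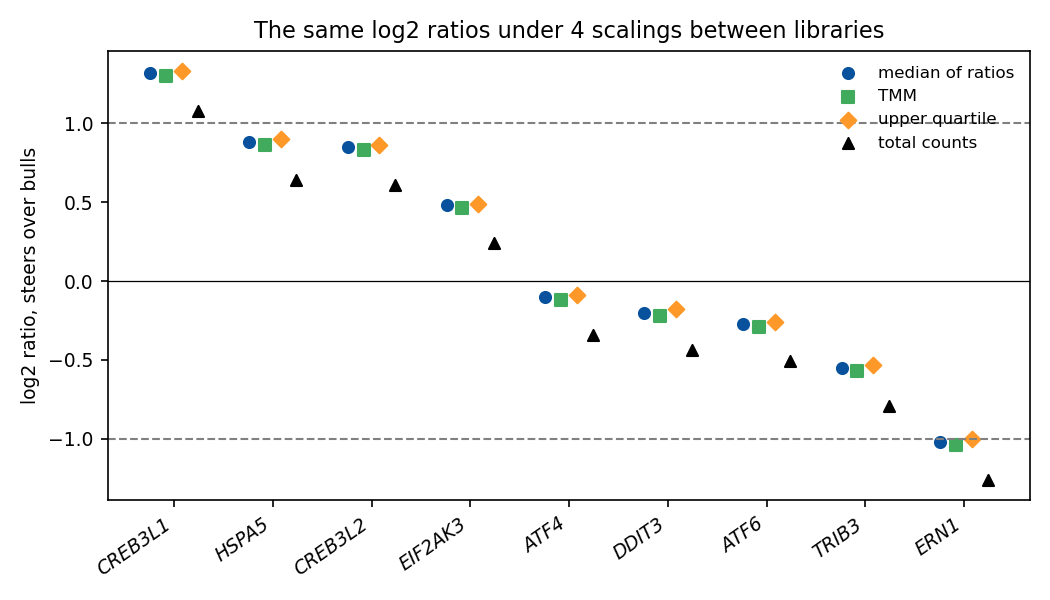
Log2 ratio, steers over bulls, of the 9 genes under 4 ways of scaling the libraries (median of ratios, TMM, upper quartile and total counts); dashed lines mark 2-fold. CREB3L1 stays above 2-fold under each, from 1.08 to 1.33, while ERN1 lies at or beyond the lower line, down to -1.26.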

How the data were processed

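The mRNA libraries of IMF, 1 pool of steers and 1 of bulls, were grouped by their titles. The authors trimmed Ion Proton reads, used MapSplice for alignment to a bovine assembly and deposited whole-number counts for each gene, not normalized. Which program counted them, and whether by strand, is not given in the sources used here. The submitters' processing notes list BWA and the human build GRCh37.p13 with no role, so no coordinates are printed.

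Size factors came from the median of ratios (numpy 2.4.6). Log2 ratios carry exact 95% Clopper-Pearson intervals (scipy 1.17.1). The intervals cover counting error only and treat reads as independent. Reads are not independent molecules, so the intervals can be too narrow even for counting error. Pairs within the set used exact conditional odds ratios, and a gene against a list used normal intervals on the log ratio. Genes with at least 20 reads over both libraries were tested. Functions were tested on simulated data. With 1 library per group, edgeR (4.0.16, R 4.3.3) served only for TMM factors and for alternatives with an assumed dispersion. EBSeq, the study's tool, was not used.

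The set and the gene lists were chosen with earlier results of these data known. By the naming rule each list gave its genes past 2-fold and the 2 with the most reads, with values for up to 4, those with the largest log2 ratios first where more qualified. Other genes are named where a comparison with the set, a sum or a marker rests on them, or after their values were seen. List sums without the most-read gene were added after seeing the data. Older symbols were used for ERO1A, ERO1B, SELENOS, AARS1, NARS1, WARS1, RTCB, SRPRA and JCHAIN. The miRNA counts were not used here.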

Additional observations from a re-analysis of the deposited data

How the results depend on the processing

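CREB3L1 stayed past 2-fold under every scaling and with 5 reads added to each scaled count. It was no longer called, at a log2 ratio of 1.32, under an exact test in edgeR with the coefficient of variation between pools set to 0.4, and it was still called with 0.2. ERN1, at -1.02, was not called with either assumption or when its whole counting interval had to lie beyond 2-fold. With 5 reads added, 0 of the 9 genes were past 2-fold lower. Total counts moved CREB3L1 to 1.08, CREB3L2 to 0.61, HSPA5 to 0.64, EIF2AK3 to 0.24 and ATF4 to -0.34, and the median of the 9 genes to -0.34. With at least 200 reads that median was 0.19, since TRIB3 was left out. Among pathway genes, 5 reads added left 1 chaperone gene past 2-fold higher and 0 lower, and 0 genes of the PERK list lower, whose median was 0.12 with at least 200 reads.

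Over all genes, 721 were past 2-fold higher and 1371 lower in steers. These counts were 2317 and 2912 without a filter on low counts (44.3% higher in steers), 247 and 455 with at least 200 reads, and 298 and 700 with the whole interval beyond 2-fold. They were 313 and 740 with an assumed coefficient of variation of 0.2, and 54 and 109 with 0.4. The variation between animals is not known here, so neither assumption was tested. No paired analysis was possible because each group had 1 mRNA library and no test of the conditions was made, and leaving out a library was not possible for the same reason. TRIB3 and ATF6, with few reads, allow only wide intervals.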
